A study of Mus musculus with 388 samples.

Results

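Among sorted bone marrow stromal cells that express the leptin receptor gene Lepr, cells with high transcript levels of 4 bone-forming genes were compared with cells that had low levels of them. The cells came from the table columns whose names begin with KT_. A cell entered when it held at least 10000 counts and Lepr at 1000 CPM or more, where CPM scales each cell to 1000000 counts. A score was taken in each cell as the mean of log2(CPM + 1) of Alpl, Col1a1, Col1a2 and Runx2. Of 388 cells in all, 189 stood in KT_ columns, and 172 of these were chosen by the rule. The 57 cells with the highest scores are called high-score cells here and the 57 with the lowest low-score cells, with 58 middle cells between them, so that each group is close to 1 part in 3. The cells were thus selected on measured values, so the levels of the 4 scoring genes describe the choice and support nothing.

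The mice were C57BL/6 animals of 2 months with the genotype KitMerCreMer; R26tdTomato, in which tamoxifen activates a Cre tied to the Kit gene and Cre switches on a red reporter. All had met tamoxifen before birth, at E12.5/14.5 in days of embryonic life, so every group shares both alleles and the drug. Marrow cells positive for PDGFRα and negative for CD45, Ter119 and CD31 had been sorted as Tomato+ or Tomato- cells. Red marks cells whose precursors had Kit active at the time of tamoxifen, and an unmarked cell may descend from a precursor without Kit or from one that Cre missed. Cell titles give 2 orders and sets such as N1 or P1, whose meaning no label explains. All KT_ columns belonged to order 2, and the members were 69 cells of N1 and 56 of N2, both Tomato-, with 24 of P1 and 23 of P2, both Tomato+. No animal is named for any cell, so each Tomato group counts as 1 sample. No test was therefore made between cells, no p-value is given, and every difference here is a description of these libraries.

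Lepr-expressing stroma surrounds the sinusoids of adult marrow, supplies blood stem cells with the chemokine Cxcl12 and with stem cell factor (Kitl), and is a source of osteoblasts and adipocytes in adult bone. Commitment to bone begins with the transcription factor Runx2, followed by Sp7, and brings the type I collagen chains Col1a1 and Col1a2, the phosphatase Alpl that frees phosphate for mineral, and late matrix proteins such as osteocalcin (Bglap). Cells of this stroma carry transcripts of both fates before they commit.

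The 172 members had a median of 660980 counts in high-score and 604872 in low-score cells, with 4617 and 4410 genes detected, and totals from 19881 to 1437645 over all of them. Across the members the score was unrelated in rank to the total count (Spearman rho 0.0077) and weakly related to the number of genes (rho 0.16), where cells are the points and share libraries. After each cell was thinned to 150000 counts, 50 of the 55 cells that then scored highest had been high-score cells before, and 0 had been low-score cells. The median number of genes still differed after thinning, 3809.5 in high-score and 3478 in low-score cells. Mitochondrial transcripts took a median of 0.741% of counts in high-score and 0.672% in low-score cells. The 148 order 1 cells that meet the same count and Lepr minimums, of 199, served as a second set of cells that the rule did not use. They comprised 86 cells of P1 and 24 of P3, both Tomato+, and 38 Tomato- cells of N2.

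The 2 Tomato groups supplied equal parts of both ends of the score. Tomato+ cells made up 16 of the 57 high-score cells and 16 of the 57 low-score cells (28.1%, exact Clopper-Pearson 95% interval 16.97 to 41.5, counting error only). The Tomato- sets were not evenly spread. N1 gave 16 high-score and 26 low-score cells, 28.1% and 45.6% of them (interval of the second 32.4 to 59.3). N2 gave 25 and 15, or 43.9% and 26.3% (30.7 to 57.6 and 15.5 to 39.7). P1 gave 10 and 9 cells, and P2 gave 6 and 7. N1 was also the shallower of the Tomato- sets, with a median of 568880 counts and 4204 genes against 709438 and 4928.5 in N2, and the part of depth in this was not tested. Median scores were 6.18 in N1, 6.63 in N2, 6.62 in P1 and 6.62 in P2, with an SD over cells between 1.38 and 1.68.

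**Figure D1:**
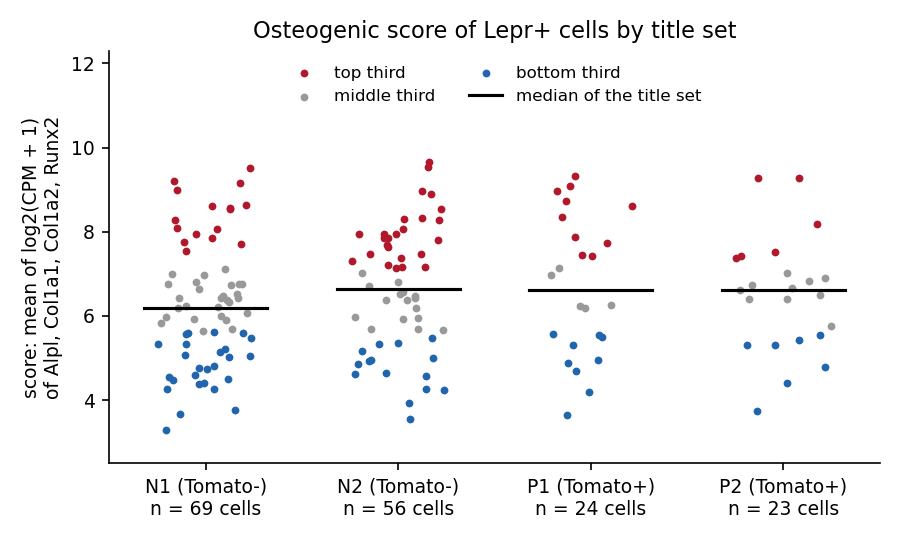
Score of each of the 172 members (mean of log2(CPM + 1) of the 4 scoring genes, vertical axis) by title set, 1 point per cell, coloured as top (high-score), middle or bottom (low-score), with the set's median as a line. All 4 sets hold cells of all 3 colours, and the median of N1 (6.18) is the lowest.

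Scores ran from 3.30 to 9.65. The lowest high-score cell had 7.15 and the first cell below it 7.13, while the highest low-score cell had 5.62 and the next cell 5.64, so neither boundary falls in a gap. For Lepr the lowest member stood at 1065 CPM and the highest cell left out at 777. High-score cells held Alpl at 252 CPM of their summed counts against 12.26 in low-score cells, Col1a1 at 857 against 81.96, Col1a2 at 2327 against 1805 and Runx2 at 192 against 74.97. These gaps are what the rule made. At least 5 counts of Alpl were present in 41 of the 57 high-score and 3 of the 57 low-score cells, whereas all 114 had as many of Col1a2.

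The 4 scoring genes scarcely varied together. Spearman rho over the 172 cells, which share libraries and an amplification step, was 0.29 for Col1a1 with Col1a2, 0.10 for Alpl with Col1a1, 0.08 for Alpl with Col1a2, 0.01 for Alpl with Runx2, 0.00 for Col1a1 with Runx2 and -0.08 for Col1a2 with Runx2. Alpl carried 37.4% of the variance of the score, Col1a1 37.6%, Runx2 21.8% and Col1a2 3.16%. Each gene was then read in cells ranked by the other 3, so that it had no part in the ranking. On this reading Alpl stood at 139 CPM in the upper and 70.1 in the lower group, a log2 ratio of 0.98, and Col1a1 at 503 and 526, a log2 ratio of -0.06. Col1a2 gave 0.26 and Runx2 0.14 on the same scale. In order 1 cells the values were -0.56 for Alpl, 1.40 for Col1a1, 0.50 for Col1a2 and 0.39 for Runx2. By these sums Alpl and Col1a1 had opposite signs in the 2 orders, and Col1a2 and Runx2 the same sign. Shares of cells with 5 counts gave another reading. For Alpl they were 43.9% in the upper and 29.8% in the lower group of order 2, and 22.4% and 8.16% in order 1. Col1a1 had 80.7% and 66.7%, and 65.3% and 38.8%. Runx2 had 71.9% and 77.2% in order 2 but 85.7% and 75.5% in order 1, so by shares Runx2 alone changed direction between orders, while all cells of these groups had 5 counts of Col1a2.

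**Figure D2:**
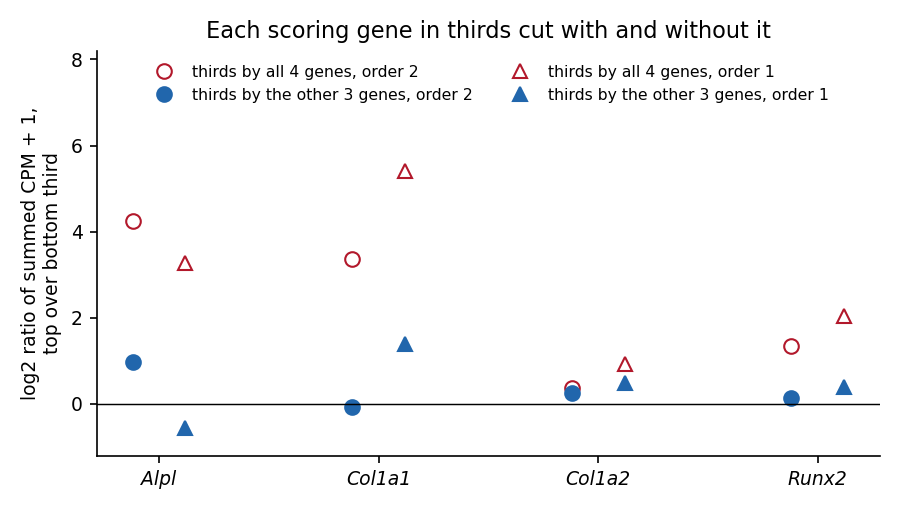
Log2 ratio of summed CPM + 1, high-score over low-score cells (vertical axis), for the 4 scoring genes (horizontal axis), in order 2 (circles) and order 1 cells (triangles). Open symbols rank cells by all 4 genes and filled symbols by the other 3, and the filled symbols of order 2 run from -0.06 to 0.98.

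The label of bone-primed cells was set against osteoblast markers outside the score. Ibsp, a sialoprotein of bone matrix, ran from 1238 to 27096 CPM with a median of 8546 in high-score cells, and from 72.1 to 18963 with a median of 7317 in low-score cells. Spp1, osteopontin, had medians of 2145 and 3288 CPM, and its summed level was 3719 against 4911 CPM. Both genes were therefore abundant at both ends of the score, with log2 ratios of 0.25 and -0.40. The late markers were near 0 at both ends: Bglap was at 0.40 and 0.14 CPM, Bglap2 at 0.51 and 0.71, Dmp1 at 10.03 and 10.3, and Ifitm5 at 2.89 and 2.65. Sp7, the osteoblast transcription factor that acts after Runx2, stood at 19.4 and 9.20 CPM and reached 5 counts in 10.5% and 8.77% of cells. All 8 osteoblast markers together summed to 13247 CPM in high-score and 12944 in low-score cells, but Ibsp and Spp1 make up most of both sums. Ibsp leaned to high-score cells in all 4 title sets, with log2 ratios of 1.06 in P1, 0.77 in P2, 0.38 in N1 and 0.06 in N2. Its mean of per-cell log2(CPM + 1) was 13.01 against 12.28, with SDs over cells of 0.88 and 1.83. In order 1 cells its log2 ratio was -0.42. Sp7 had a log2 ratio of 1.0, but few cells at either end held it. The markers thus gave no common direction, so the cells are called by their score and not as primed.

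Stromal identity was close to equal. Lepr stood at 5035 CPM in high-score and 4697 in low-score cells, Cxcl12 at 55870 and 54265, Adipoq at 3585 and 3759, and Kitl at 1590 and 1869. Pdgfra, the receptor used in the sort, stood at 321 and 429 CPM. None of the 5 passed 1.5-fold. Kit was almost absent from high-score cells at 0.24 CPM, and 88.2% of its counts in low-score cells lay in 1 cell.

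Over all genes, a gene was considered when the end with the higher level had at least 20 CPM and 5 counts in 20% of its cells, and it counted as higher or lower past 1.5-fold between the summed ends when the mean of per-cell log2(CPM + 1) went the same way. Of 5701 genes considered, 665 were higher in high-score cells (11.7%) and 587 were lower (10.3%), with a median log2 ratio of 0.00. The mean of per-cell log2 values, by contrast, leaned to high-score cells, with a median difference of 0.27. The middle cells lay between the ends for 434 of the 665 genes and 393 of the 587. With the ends taken within each title set, 215 of the 665 and 203 of the 587 kept their sign in all 4 sets. The middle and set counts use genes called on these same cells, so part of the agreement is built in. Their shares over all genes were not taken. The same holds for the set ratios of single genes below.

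The second set of cells shared little of this. In order 1, 26.9% of 4579 considered genes were higher and 11.2% lower, with a median log2 ratio of 0.14, and the score there had a rank correlation of 0.34 with genes detected. Of the 665 genes higher in order 2, 355 were considered in order 1. Of these 355, 223 had the same sign, 121 were higher there too and 46 were lower. Of the 587 lower genes, 321 were considered, 138 had the same sign, 51 were lower there too and 94 were higher. The 121 genes are 18.2% of the order 2 list and 9.84% of the order 1 list. Across the 4194 genes considered in both, the 2 log2 ratios had a Pearson r of 0.027 and a Spearman rho of 0.040, where genes are not independent replicates, and 52.2% had the same sign.

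**Figure D3:**
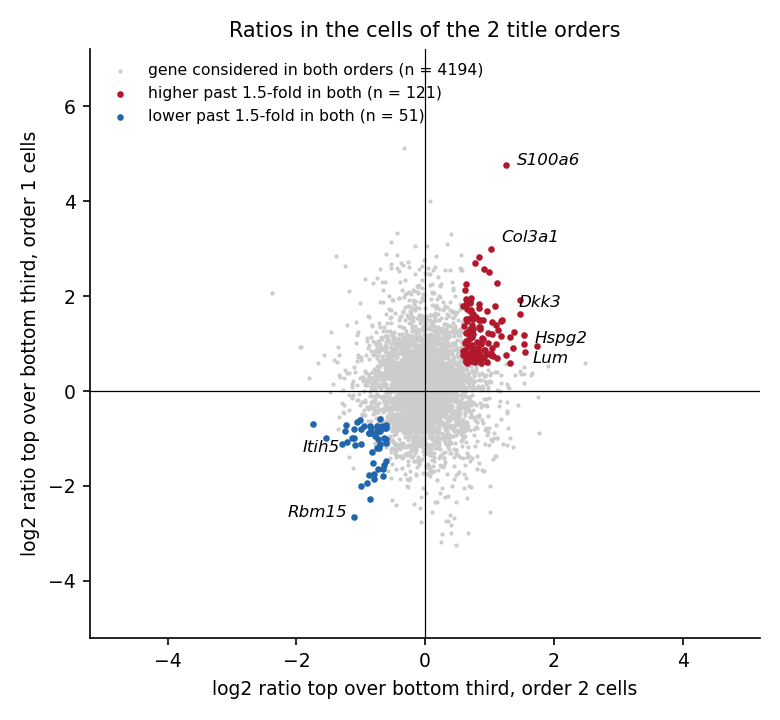
Log2 ratio of high-score over low-score cells for 4194 genes in order 2 (horizontal) and order 1 cells (vertical), 1 point per gene, with the 121 genes higher past 1.5-fold in both in red and the 51 lower in both in blue. The cloud is round about the origin, and the coloured points are a corner of it chosen by size in both.

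Genes of bone formation were described by lists, in the order in which they act. Of 10 transcription factors of the bone lineage considered, 1 was higher and 2 were lower, beside 11.7% and 10.3% of all genes. Their median log2 ratio was -0.16 against 0.00 for all genes. Dlx5, which acts with Runx2 on bone genes (chr6:6877805-6882085, minus strand), was the higher one at 74.2 against 41.8 CPM, a log2 ratio of 0.81, and it was higher in order 1 too at 0.85. Msx1, a homeobox factor of skeletal progenitors, was lower at 31.97 against 50.8 CPM, a log2 ratio of -0.65. In order 1 its ratio was 0.92, and the call was lost without P1 (-0.45), P2 (-0.14) or N1 (-0.36).

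In order 2, bone matrix proteins passed 1.5-fold about as often as other genes. Of 15 considered, 2 were higher and 0 lower, with 9 others above 0 and a median log2 ratio of 0.26. The share higher, at 2 of 15, is near the 11.7% of all genes. In order 1, 9 of 16 were higher and 1 lower, beside 26.9% and 11.2% of all genes. The list median there was 0.66 against 0.14 for all genes. Of 15 considered in both orders, 10 were above 0 in both and 1 below 0 in both. Lum encodes lumican, a small proteoglycan that spaces collagen fibrils (chr10:97565128-97572703, plus strand). Its level in single high-score cells ran from 0 to 5681 CPM with a median of 241, and in low-score cells from 0 to 3754 with a median of 9.85. The 2 ranges overlap up to 3754 CPM, and both the median and the maximum are higher in high-score cells. A single cell held 22.8% of the Lum counts of high-score cells and another 22.2% of those of low-score cells. The summed levels were 906 CPM (exact Poisson interval 896 to 916, counting error only) and 312 (307 to 318), a log2 ratio of 1.53, and the ratio was above 0 in all 4 sets and 0.98 in order 1. The middle cells did not lie between, since their sum was 240 CPM. Omd, osteomodulin, another small proteoglycan of mineralised matrix, stood at 55.1 against 26.6 CPM and was higher in order 1 as well at 0.76. Leaving out any 1 title set kept both past 1.5-fold, Lum between 1.302 and 1.66 and Omd between 0.77 and 1.24. Within single sets Omd stood at 5.72 in P1, 0.92 in N1, 0.62 in N2 and -1.11 in P2. The middle cells of Omd, at 22.1 CPM, lay below both ends.

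Mineral and collagen-processing genes gave no common direction. Only 3 genes of mineralisation and phosphate handling were considered: the phosphate carrier Slc20a1 stood at 66.3 against 41.4 CPM and the pyrophosphate exporter Ank at 27.1 against 17.7, both higher, and Enpp1 at 105 against 128. In order 1 Slc20a1 was lower with a log2 ratio of -2.99, and without set N1 neither Slc20a1 (0.34) nor Ank (-0.14) passed 1.5-fold. Of 23 collagen-processing genes, 2 were higher and 1 lower, shares below the 11.7% and 10.3% of all genes, with a median of 0.14. P4ha2, a prolyl hydroxylase subunit, was higher at 43.5 against 20.2 CPM in all 4 sets but stood at -0.09 in order 1. Plod2, the lysyl hydroxylase of collagen cross-links, was lower at 76.8 against 136 CPM, and P3h3, another prolyl hydroxylase, was higher at 38.1 against 24.1; in order 1 they stood at 0.16 and 0.05. Plod2 lost 1.5-fold without N1 and P3h3 without N2, P1 or P2.

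Signals and receptors of osteogenesis had the most members past the fold. Of 22 considered, 5 were higher and 1 lower, with 13 others above 0 and a median log2 ratio of 0.25. The 5 of 22 stand beside 11.7% of all genes. In order 1, 9 of 19 were higher and 0 lower, beside 26.9% and 11.2% of all genes, with a list median of 0.38. Of 17 considered in both orders, 12 were above 0 in both and 0 below 0 in both. Clec11a, a secreted growth factor of marrow stroma that promotes bone formation (chr7:44302687-44306902, minus strand), ran from 0 to 535 CPM with a median of 188 in high-score cells and from 0 to 686 with a median of 59.9 in low-score cells. High-score cells thus had it more often, 84.2% against 56.1% of cells with 5 counts, and not at a greater peak. Its summed level was 186 (181.5 to 190) against 102 CPM (98.7 to 105), a log2 ratio of 0.86. Dkk3, a secreted relative of the Wnt antagonists (chr7:112116017-112159057, minus strand), had medians of 55.2 and 0 CPM and maxima of 949 and 622, and summed to 135 against 58.2, a log2 ratio of 1.20. Sfrp1, a secreted Wnt antagonist, stood at 62.8 against 33.6 CPM. All 3 were above 0 in each of the 4 sets and past 1.5-fold in order 1, at 1.36, 1.5 and 1.11. These 3 of the 5 were picked by a rank that uses both orders, so their order 1 values are part of the choice and no support. Clec11a and Dkk3 stayed past 1.5-fold without any 1 set, from 0.80 to 1.05 and from 0.69 to 1.29. Sfrp1 stood at 0.80 without N1 but was not counted as higher there.

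The other called members of that list were named after their values were seen. Sfrp2, a further Wnt antagonist, was at 41.8 against 17.9 CPM, a log2 ratio of 1.18 that was 0.56 without N2. The BMP effector Smad5 was at 26.8 against 16.3, and its ratio of 0.68 was -0.14 without N1. Smad1, its close relative, was the lower member at 14.2 against 25.1, and its ratio of -0.78 was -0.03 without N2. The 3 calls were each lost without 1 set.

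Lists of osteoprogenitor markers and of osteoclast regulators can be read beside them. Of 14 osteoprogenitor markers, 3 were higher and 0 lower, beside 11.7% and 10.3% of all genes, with a median of 0.30: Clec11a, Mmp13 and the adhesion molecule Ncam1. Ncam1 stood at 132 against 85.1 CPM, above 0 in all 4 sets and 1.23 in order 1. Mmp13, a collagenase of bone remodelling (chr9:7272514-7283331, plus strand), ran from 0 to 7329 CPM with a median of 175 in high-score cells and from 0 to 5026 with a median of 21.8 in low-score cells. It summed to 871 against 411 CPM, a log2 ratio of 1.08, yet that ratio was -0.26 without set N2 and -1.45 within N1. Of 6 osteoclast regulators, Mmp13 alone was higher, while the macrophage growth factors Csf1 and Il34 stood at 837 against 880 and 473 against 413 CPM. In order 1, where 26.9% of all genes were higher, 6 of 15 osteoprogenitor markers and 1 of 6 osteoclast regulators were higher. Transcription factors gave 2 of 9 there, collagen processing 6 of 22 and mineralisation 0 of 2, with both of the last lower.

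**Figure D4:**
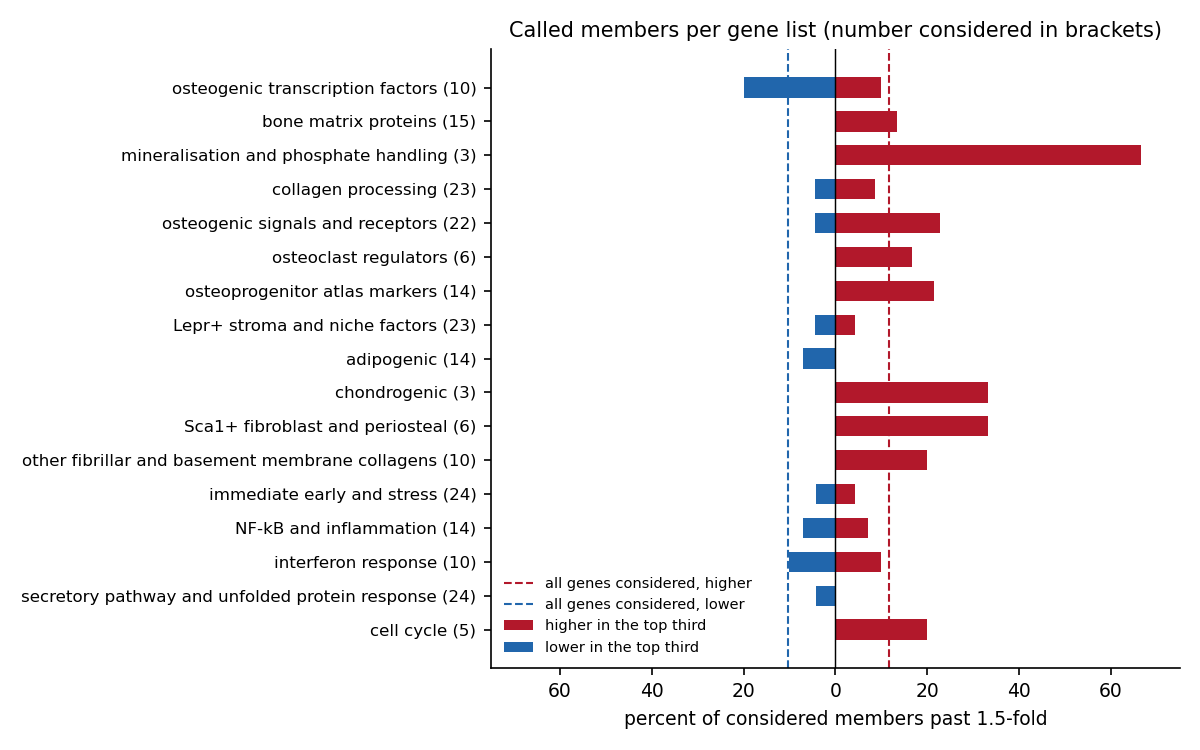
Percent (horizontal axis) of considered members of each gene list, marker lists of other cells not drawn, that were higher (right) or lower (left) past 1.5-fold in high-score cells, with the number considered in brackets and the same percents over all 5701 genes as dashed lines (11.7 and 10.3). Signals and receptors (5 of 22 higher) reach past the dashed line, bone matrix proteins (2 of 15) end near it, and the widest bars drawn belong to lists of 3 to 6 genes.

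The genes most alike in both orders were ranked by the smaller of the 2 ratios, so their order 1 values are part of the choice and no support. The first 12 higher genes were Elovl5, C1qtnf5, S100a6, Slc25a20, Dkk3, Hspg2, Gli3, Stxbp3, Cdipt, Flrt2, Ttc28 and Aida. Their log2 ratios lay between 1.10 and 1.54. S100a6, a calcium-binding protein of fibroblasts and other mesenchyme (chr3:90612882-90624181, plus strand), ran from 0 to 429 CPM with a median of 34.7 in high-score cells and from 0 to 164 with a median of 1.36 in low-score cells. It summed to 57.02 (54.6 to 59.5) against 23.3 CPM (21.7 to 24.9), a log2 ratio of 1.26, and to 41.04 against 0.54 in order 1. Hspg2 encodes perlecan, the large heparan sulfate proteoglycan of basement membranes and pericellular matrix (chr4:137468769-137570630, plus strand). Its single-cell maxima were close, at 242 and 247 CPM, and 50.9% against 17.5% of cells had 5 counts. It summed to 37.1 against 12.1 CPM, a log2 ratio of 1.54.

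The other genes of the 12 have varied roles. Elovl5, an elongase of polyunsaturated fatty acids (chr9:77917364-77984519, plus strand), stood at 49.6 against 17.2 CPM. Slc25a20, the carnitine carrier of mitochondria, was at 38.9 against 14.3, and Cdipt, the phosphatidylinositol synthase, at 66.2 against 26.02. All 3 were above 0 in each set and stayed past 1.5-fold without any 1 set. Gli3, the transcription factor that mostly represses Hedgehog targets, was at 40.9 against 17.5 CPM and Stxbp3, a vesicle-fusion regulator, at 94.5 against 40.95. Flrt2, an adhesion and guidance receptor, was at 103 against 46.5, and its middle cells at 119 lay above both. Gli3 fell short without N2 (0.57), Ttc28 without N1 (0.30), and Aida without N1 (0.39) or P1 (0.48). C1qtnf5, a secreted C1q relative at 25.2 against 8.44 CPM, has an annotated transcript in common with its neighbour Mfrp, so its reads may be shared.

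Because Runx2 is a scoring gene, promoters of these genes were searched for the core of the RUNX site, TGTGGT, on both strands, along with the GC box GGGCGG, the TATA box TATAAA and the AP-1 site TGANTCA. The stretch read was the 250 bases before each RefSeq start on GRCm38.p6, and 10 of the 12 higher and 12 of the 12 lower genes had one. A RUNX core was found in 7 of the 10 higher and 1 of the 12 lower genes. Of all 27025 genes read, 15.9% had one, or 14.05% of the 32851 promoters. The 7 include C1qtnf5 and Gli3, whose stretches are not plain upstream sequence. That of C1qtnf5 (chr9:44101520-44101769) lies far before the gene's annotated start at 44107245. All 250 bases of the Gli3 stretch lie within an annotated exon. Over the longer lists the share was 17 of 100 matched genes higher in both orders (17%) and 3 of 42 lower in both (7.14%). The first 12 thus hold more of these letters than the 121 they lead. The GC box was in 62 of the 100 and 28 of the 42, and in 35.4% of all genes, the TATA box in 6 and 4 with 14.3% of all, and the AP-1 site in 2 and 1 with 7.82%. S100a6 has 3 RUNX cores, 217, 145 and 79 bases before the start, and is shown for that; Elovl5, first in rank, has 1 at 154 bases and Flrt2 1 at 135. In the sequences, 5′ to 3′ on the gene's strand, capitals mark a RUNX core on either strand, and none of the other 3 motifs is present.
S100a6, chr3:90612644-90612893, plus strand: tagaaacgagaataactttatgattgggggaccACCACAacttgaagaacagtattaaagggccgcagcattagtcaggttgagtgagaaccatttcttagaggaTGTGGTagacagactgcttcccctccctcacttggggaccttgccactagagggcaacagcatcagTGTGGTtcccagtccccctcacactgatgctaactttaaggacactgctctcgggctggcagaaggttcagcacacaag
Elovl5, chr9:77917115-77917364, plus strand: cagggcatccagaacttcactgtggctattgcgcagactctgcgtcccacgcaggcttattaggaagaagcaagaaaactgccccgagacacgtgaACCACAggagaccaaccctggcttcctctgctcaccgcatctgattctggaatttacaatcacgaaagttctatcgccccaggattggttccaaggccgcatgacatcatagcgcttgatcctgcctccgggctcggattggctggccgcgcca
Flrt2, chr12:95691976-95692225, plus strand: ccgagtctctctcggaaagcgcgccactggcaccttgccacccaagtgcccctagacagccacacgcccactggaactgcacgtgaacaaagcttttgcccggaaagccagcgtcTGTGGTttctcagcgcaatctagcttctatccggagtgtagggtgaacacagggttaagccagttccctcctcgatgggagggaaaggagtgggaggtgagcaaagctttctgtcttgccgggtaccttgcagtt
A match is a run of letters, not a bound site, and no binding data are used here.

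The first 12 lower genes were Gnl3, Rbm15, Myo6, Nmt1, Klf3, Itih5, Adamts9, Cacna2d1, Apobec3, Fem1b, Parp2 and BC039771. Their log2 ratios lay between -1.53 and -0.86. Itih5, a hyaluronan-binding matrix protein (chr2:10153571-10256529, plus strand), ran from 0 to 2911 CPM with a median of 308 in low-score cells and from 0 to 1285 with a median of 118 in high-score cells. It summed to 240 (235 to 245) in high-score and 478 CPM (471 to 485) in low-score cells, a log2 ratio of -0.99, was below 0 in all 4 sets and lay between -1.59 and -0.86 when any 1 set was left out. Rbm15, an RNA-binding protein of the N6-methyladenosine writer complex (chr3:107325421-107333673, minus strand), had medians of 12.7 and 25.8 CPM and maxima of 250 and 703. Its sums were 31.1 and 68.1, a log2 ratio of -1.11, and 1 set, P1, went the other way at 1.18.

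The rest have varied roles as well. Gnl3, nucleostemin, a nucleolar GTPase of proliferating cells, stood at 24.2 against 60.9 CPM, and Parp2, a DNA repair enzyme, at 17.7 against 33.3. Klf3, a repressor that restrains adipogenesis, had medians of 3.80 and 33.6 CPM and sums of 50.2 and 109. Adamts9, a protease of versican, was at 30.6 against 61.8 and Cacna2d1, a calcium channel subunit, at 10.5 against 32.3. Of the 12, 6 lost 1.5-fold without 1 set: Myo6 (-0.36), Nmt1 (-0.26), Klf3 (-0.52), Fem1b (-0.15) and Parp2 (-0.41) without N2, and Apobec3 without P2 (-0.47) and, though at -0.99, without N1. BC039771 had the same counts as Rin2 in every cell, so the 2 are 1 measurement, at 86.4 against 158 CPM.

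**Figure D5:**
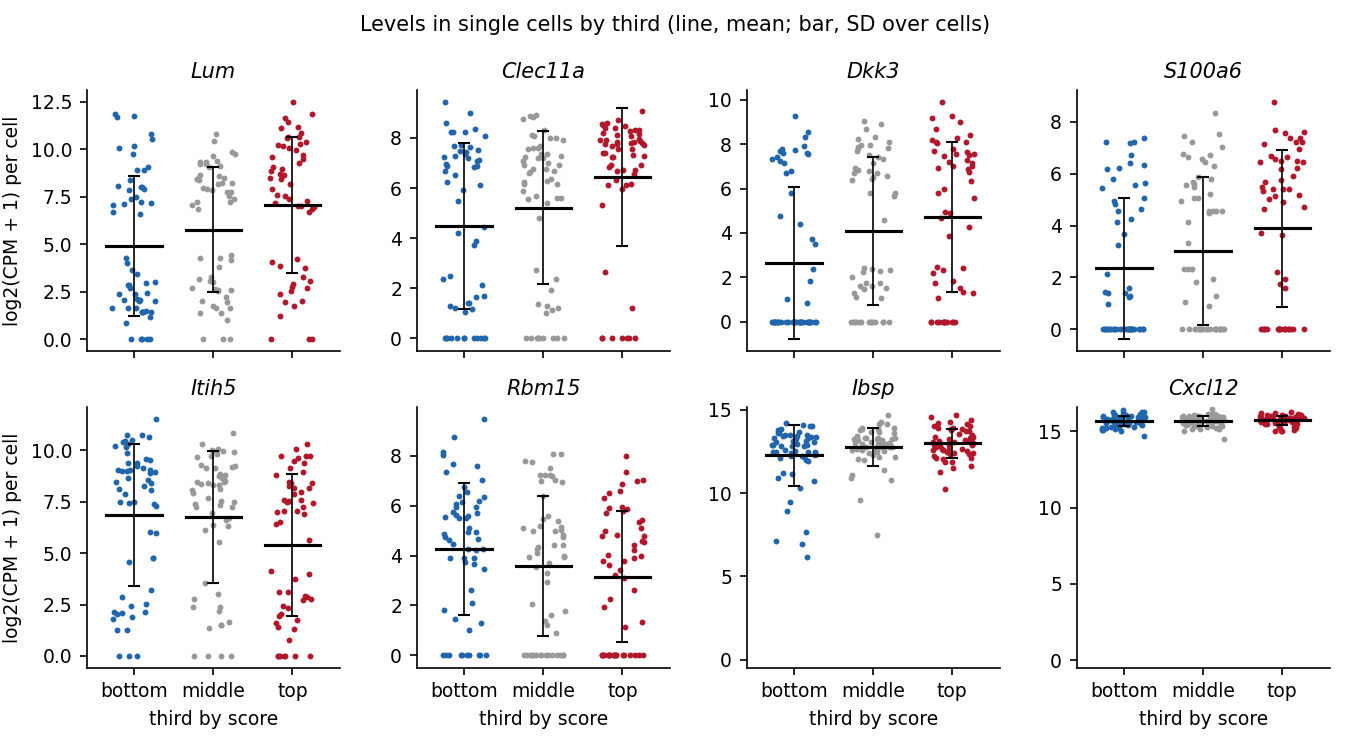
Log2(CPM + 1) of 8 genes in single cells (vertical axes) in the bottom (low-score), middle and top (high-score) cells, 1 point per cell, with the mean as a line and the SD over cells as a bar. The means of Lum, Clec11a, Dkk3 and S100a6 climb from bottom to top, and those of Itih5 and Rbm15 are lowest in the top. The mean of Ibsp climbs less, from 12.28 to 13.01, and Cxcl12 lies at like heights. The bars of all 8 genes overlap.

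Fibroblast and other collagen genes were few in number, and Col3a1 stands in both lists. Of 6 genes of Sca1+ fibroblasts and periosteum considered, 2 were higher and 0 lower, the other 4 were above 0, and the median was 0.32, or 1.41 in order 1. Col3a1, the fibrillar collagen of loose connective tissue (chr1:45311538-45349706, plus strand), ran from 0 to 2186 CPM with a median of 192 in high-score cells and from 0 to 1496 with a median of 6.72 in low-score cells. It summed to 394 (387 to 400) against 194 CPM (189 to 199), a log2 ratio of 1.02, and to 266 against 32.5 in order 1. Without set N2 the ratio was 0.36, and within P1 it was -2.07. Of 10 other fibrillar and basement membrane collagens, Col3a1 and Col6a3 were higher and 0 were lower, so both lists had 2 members higher, of 6 and of 10, beside 11.7% of all genes. Col6a3 stood at 41.3 against 19.1 CPM and Col6a1, a far more abundant chain of the same collagen, at 1169 against 923, short of 1.5-fold. Of 3 chondrogenic genes, Comp, a cartilage matrix protein, was higher at 60.4 against 20.5 CPM but reached 5 counts in only 21.1% and 8.77% of cells, and Sox9 stood at 299 against 167 with medians of 35.1 and 82.96, in opposite order.

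Few niche and fat genes passed 1.5-fold, beside 11.7% of all genes higher and 10.3% lower. Of 23 Lepr+ stroma and niche genes, 1 was higher and 1 lower, with a median of -0.07. Ebf3, a factor that keeps marrow stroma from turning to bone (chr7:137193673-137314445, minus strand), was the higher at 87.9 against 51.6 CPM, with medians of 67.97 and 6.47. It was at -0.25 in order 1 and, without N1, at 0.48. Nt5e, which makes adenosine, was lower at 44.2 against 80.98 CPM, and at -0.74 in order 1. Of 14 adipogenic genes, 0 were higher and Scd1, a fatty acid desaturase, was lower at 58.7 against 98.2 CPM, while the list's median was -0.10; Scd1 was at 1.05 in order 1 and at -0.30 without P2.

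Stress, secretion and immune lists showed single members at most in either direction, beside 11.7% of all genes higher and 10.3% lower. Of 24 genes of the secretory pathway and unfolded protein response, only the sensor Atf6 was lower, at 65.4 against 101 CPM, with a list median of -0.12, and Hspa5, the main chaperone of the endoplasmic reticulum, stood at 4179 against 5902 CPM with medians of 3330 and 4853. Of 24 immediate early and stress genes, Ier2 was higher at 459 against 291 CPM and the heat shock protein Hsph1 lower at 689 against 1263. In order 1 the signs of Ier2 and Hsph1 were the other way, at -0.26 and 0.29. Hsph1 was at -0.06 without N1, and the calls of Ier2 (without P1, N1 or N2) and Atf6 (without P2, N1 or N2) were lost in 3 of the 4 omissions each. Of 14 NF-kB genes, Icam1 was higher at 755 against 492 CPM and Il6 lower at 56.8 against 219. A single cell held 45.5% of the Il6 counts of low-score cells and another 39.1% of those of high-score cells, and without N2 Il6 was at 0.52 and Icam1 at -0.07, and without P1 Il6 was at -0.39. Of 10 interferon genes, 1 was higher and 1 lower, with a median of -0.12. Gbp2 was the higher one at 139 against 90.4 but its ratio of 0.61 was 0.12 without P1 and 0.55 without P2. Of 5 cell cycle genes, the inhibitor Cdkn1c was higher at 60.8 against 36.4 CPM and at 0.03 without P2.

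Markers of other cells were also read at both ends, where 11.7% of all genes considered were higher in high-score cells and 10.3% lower. Ptprc, which encodes CD45, was at 0.13 and 0.16 CPM in high-score and low-score cells, and Pecam1, which encodes CD31, at 0.72 and 2.68. The 14 myeloid markers summed to 143 and 139 CPM, with single cells from 0 to 12524 and from 0 to 1203 CPM, and 1 of 3 considered was higher, Cd68 at 20.1 against 9.26; Cd68 was at -0.17 without N1 and -0.14 without P2. S100a8 and S100a9, granulocyte proteins, reached 5 counts in 63.2% and 57.9% of high-score cells and in 70.2% of low-score cells each, at 49.3 against 50.9 and 40.3 against 40.8 CPM. The erythroid markers summed to 59.8 and 269 CPM, and all 3 considered, Hba-a1, Hba-a2 and Hbb-bs, were lower. The highest low-score cell held 9909 CPM of that list and the highest high-score cell 1052, a single cell held 66.4% of the Hbb-bs counts of the low-score cells, and Hba-a1 and Hba-a2 are near copies that share reads. Without N2 none of the 3 was called, with Hbb-bs at 0.07, Hba-a1 at -0.48 and Hba-a2 at -0.94, the last still past 1.5-fold. In order 1 Hbb-bs was at 2.06. The 14 endothelial markers summed to 127 and 151 CPM and the 10 pericyte and smooth muscle markers to 166 and 190, with Des higher at 39.4 against 10.2 CPM. Without N1 the log2 ratio of Des grew from 1.85 to 2.91, but Des no longer met the terms for a call. Alas2 and Slc4a1 of the erythroid list, Ms4a1 and Il7r of the lymphoid, Tek of the endothelial and Sox10 and Ngfr of the Schwann list had no count at either end. The lymphoid and Schwann lists had 1 gene considered each and the megakaryocyte list 0, and they summed to 332 against 412, 58.9 against 47.5 and 3.32 against 20.1 CPM in that order of lymphoid, Schwann and megakaryocyte. With 9 cells left out that held 1000 CPM of a myeloid, erythroid, megakaryocyte or endothelial list, 2 of them high-score and 4 low-score, 701 genes were higher and 655 lower. The part of other cells in the results was not tested beyond this.

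Cells were also divided by 1 scoring gene at a time, at 5 counts, with the divided gene left out; genes in these sentences were named after their values were seen. Of the 172 cells, 58 had Alpl, and 434 of 5723 genes were higher in them (7.58%) and 435 lower (7.6%). In order 1, Alpl was present in 27 of 148 cells, with 18.7% higher and 17.5% lower. Of the 434, 49 were higher in both orders, and among them were Wif1, a secreted Wnt inhibitor of early osteoblasts, Mmp13 and Limch1, an actin-linked protein that activates myosin. Wif1 stood at 294 CPM in cells with Alpl against 183 without, Mmp13 at 841 against 441 and Limch1 at 129 against 67.03. The corresponding order 1 levels were 606 against 217, 1517 against 846 and 325 against 163 CPM. Median totals were 671996 and 612057 counts with and without Alpl in order 2.

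The same division was made for Col1a1 and Runx2. For Col1a1, with 120 cells against 52, 8.67% of 5664 genes were higher and 8.99% lower in order 2, and 19% and 11.1% in order 1. Of 491 higher, 250 were considered in order 1 and 77 were higher in both orders, including Col3a1, Lum, Dkk3 and S100a6. Lum stood at 563 CPM with and 308 without Col1a1. For Runx2, with 126 cells against 46, 10.9% of 5569 genes were higher and 7.42% lower in order 2, and 38.4% and 8% in order 1. Of 606 higher, 286 were considered in order 1 and 133 were higher in both orders. Among the 133 were Bmp4, a ligand of bone morphogenesis, its receptor Bmpr1a and the BMP target Id2. Bmp4 stood at 192 CPM in cells with Runx2 against 97.8 without, Bmpr1a at 50.4 against 18.5 and Id2 at 144 against 68.7. Order 1 gave 329 against 141, 84.5 against 45.8 and 84.6 against 18.9 CPM. Of the 22 osteogenic signals considered in order 2, 9 were higher with Runx2 and 1 lower, against 4 and 3 with Alpl. In order 1, 7 of 18 osteogenic signals were higher with Runx2, near the 38.4% of all genes. Immediate early and stress genes were higher more often there, at 16 of 21, with a median log2 ratio of 1.21 against 0.29 for all genes. In order 2, 0 of 24 of them were higher with Runx2. Of the adipogenic genes, 6 of 12 were higher and 1 lower in order 1, and 0 of 16 higher and 2 lower in order 2. Cells with Runx2 were deeper, with median totals of 657762 against 574140 in order 2 and 850852 against 670501 in order 1, and the part of depth in these counts was not tested. Whether the genes that went with Alpl, Col1a1 and Runx2 differ was not tested.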

How the data were processed

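Whole-transcript libraries of single sorted marrow cells were read from 1 table of 25000 genes by 388 cells. The deposited values are expected counts made by the authors from their reads, per the file headers and values. Tools named per the submitters' processing notes are StringTie 1.3.3b, HTSeq 0.6.0 and HISAT, with GRCm38 as the genome build. The role of each, the annotation and the strand setting are not stated in the labels. RNA was amplified per the labels' protocols, with no mention of molecular identifiers, so intervals cover counting error only, and overlapping antisense genes cannot be told apart.

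Values were rounded to whole counts; 50260 values, 5.77% of those above 0 in KT_ columns, were not whole within 1e-06. Column names gave title order and set but not the single title, and 0 columns were unused. CPM was taken per cell and, for each end of the score, from summed counts. Ratios are log2 of CPM + 1, which understates changes of low genes. The 4 scoring genes were left out. Of the 25000 genes, 14717 had a count in a member. Cells are not replicates, so there is no test. Planned ranking within 2 title orders could not be done inside KT_ columns, which hold order 2 alone; order 1 cells chosen by the same rule served as the other order.

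Named genes were the first 12 called in each direction, ranked by the smaller order ratio, without mitochondrial, ribosomal protein and predicted genes. Up to 3 members a list were added, called ones first by the same rank, with Lepr, Cxcl12, Kitl, Kit, Pdgfra, Sp7, Adipoq, Ptprc and Pecam1. Members, 25 gene lists and rules were chosen with earlier results of these data known. Values of a few list members are left out here. Doublets were not called; 1 member had 5 or more Ptprc counts and 13 had as many of Pecam1. Intervals are exact Poisson for sums and Clopper-Pearson for shares of cells, at 95%. The calls were run on simulated data in which the changed genes were seen in more cells than many genes named here. That run does not cover genes seen in few cells. Coordinates are from GENCODE M21 on GRCm38, which held 24685 of the symbols, and promoters from RefSeq on GRCm38.p6. Python 3.11.15, numpy 2.4.6, pandas 2.3.3, scipy 1.17.1 and matplotlib 3.10.9 were used. Alternatives in scaling, pseudocount, filter, score, Lepr minimum, depth and cells left out are in the closing section.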

Additional observations from a re-analysis of the deposited data

Results flagged for a closer look

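For 5 of the named genes that were higher or lower past 1.5-fold, both Tomato- sets went one way and both Tomato+ sets the other when high-score and low-score cells were taken within each set. The difference between the Tomato groups was not tested, and the sets held 69 (N1), 56 (N2), 24 (P1) and 23 (P2) members before they were divided. Nmt1, with a log2 ratio of -1.21 over all members, gave -0.72 in N1 and -1.39 in N2 but 0.58 in P1 and 0.57 in P2. Ank, at 0.59 over all, gave 1.71 and 0.11 in N1 and N2 and -0.82 and -1.06 in P1 and P2. Ebf3, at 0.76, gave 2.38 and 0.84 in N1 and N2 and -0.29 and -0.00083 in P1 and P2. Il6, at -1.93, gave 1.49 and 1.48 in N1 and N2 and -2.21 and -3.60 in P1 and P2. Cdkn1c, at 0.73, gave -0.44 and -0.33 in N1 and N2 and 3.13 and 2.28 in P1 and P2.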

How the results depend on the processing

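Of the 665 higher and 587 lower genes, the filter at 5 CPM and 5% of cells gave 1666 and 1537, Tomato+ cells alone 1427 and 1690, and a pseudocount of 10 CPM 434 higher. Order 1 cells gave 1230 higher, and 121 higher and 51 lower were called in both orders. Leaving out each title set in turn gave 776 to 962 higher and 642 to 1028 lower, the latter without N1. Other settings stayed within 1.5 times, but a count does not say which genes: 340 of the 665 and 305 of the 587 were called again with the score without Alpl, 319 and 233 with Alpl and Runx2 only, and 405 and 374 after thinning. With median-of-ratios scaling the median of all genes was 0.02. Of the named genes, Cdipt, Elovl5, Hspg2, Omd, Rbm15, S100a6, Slc25a20 and Stxbp3 kept their call in each alternative that was run. Order 1 is among those alternatives, and all but Omd were picked by a rank that uses it. The other alternatives reuse order 2 cells, so these calls are no support. Single title sets were not among the alternatives. Within them Omd was at -1.11 in P2, Rbm15 at 1.18 in P1 and Stxbp3 at -0.14 in N2, while the rest kept their sign.

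These log2 ratios changed sign. In order 1, Msx1 was at 0.92, Slc20a1 -2.99, Plod2 0.16, P4ha2 -0.086, Ebf3 -0.25, Scd1 1.05, Hsph1 0.29, Ier2 -0.26, Il6 0.93, Icam1 -0.32, Gbp2 -1.75, Cd68 -0.31, Hbb-bs 2.06, Hba-a2 1.20 and Hba-a1 0.93. In Tomato+ cells alone, Myo6 was at 0.22, Nmt1 0.23, Fem1b 0.19, Parp2 0.25, Ank -0.46, Plod2 0.055, Ebf3 -0.13, Col3a1 -0.044, Smad5 -1.34 and Smad1 0.58. In Tomato- cells alone, Msx1 was at 0.080, Gbp2 -0.13 and Cdkn1c -0.16. With the score without Alpl, Aida was at -0.017, Scd1 0.14, Gbp2 -1.07 and Cd68 -0.68. With Alpl and Runx2 only, Nmt1 was at 0.22, Apobec3 0.12, Icam1 -0.14 and Cdkn1c -0.29. Nmt1 was at 0.21 without Col1a1 in the score. Il6 was at 0.66 with the larger pseudocount, 0.68 with ends taken within sets, 0.28 after thinning, 0.36 without Col1a2 and 0.35 without Runx2 in the score. Cd68 was at -0.11 in the highest against the lowest 25% of cells and -0.34 after thinning. Leaving out a set ranged from -0.14 to 0.81 for Ank, -0.26 to 2.22 for Mmp13, -1.87 to 0.52 for Il6, -0.067 to 1.05 for Icam1, -0.17 to 2.10 for Cd68, -2.66 to 0.068 for Hbb-bs and -0.14 to 2.12 for Smad5. The cause of these changes was not tested.

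Ends taken within each title order equal those reported, since all members are of order 2. Order 1, calls in both orders, cells dropped for marker lists and the division by single scoring genes were chosen after seeing the data. No paired analysis was possible because replicate numbers only name cells and no test was made. Depth limits low genes, in which 1 cell can hold much of a sum, such as 47.2% of the Ttc28 counts of low-score cells.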
